A study of Forsythia suspensa with 2 samples.

Results

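Among the assembled transcripts of Forsythia suspensa, 123 of 81913 were very abundant in leaf and present in flower at a lower but still sizeable level. They were chosen by their measured values, as transcripts of at least 500 CPM in leaf (CPM is the expected count divided by the library total, times 1000000) whose leaf level was at least 4 and under 32 times the flower level. For this ratio 2 counts were added to each expected count before division by the library total. The ratio window and the leaf minimum thus fix the direction and the limits of every ratio below, and these are given as a description. These 123 transcripts are called the members in what follows.

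The study concerns medicinal Forsythia and its genes of secondary metabolism. The plants were F. suspensa, 2 years old and growing outdoors at a medicinal plant research station, with no treatment, and flower and leaf were taken in the same month. The labels name no cultivar or genotype and leave it unsaid whether flower and leaf shared a plant or whether plants were pooled. Polyadenylated RNA was sequenced from 1 flower and 1 leaf library, so no value has a replicate check and no test across samples was possible. The expected counts summed to 7442016 (flower) and 7234013 (leaf), so that a count of 1 stood for 0.134 and 0.138 CPM. In whole organs, fewer cells of a type and less RNA per cell cannot be told apart.

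A leaf blade is built mostly of photosynthetic mesophyll, and in land plants its messenger RNA pool is often dominated by a small number of very abundant nuclear transcripts, among them those of the small subunit of Rubisco and of the chlorophyll-binding light-harvesting proteins. A flower joins organs of different kinds: green sepals keep chloroplasts, while petals, stamens and carpels have programmes of their own. Forsythia is known in medicine for phenylethanoid glycosides and for lignans, the latter made from phenylpropanoid precursors. The deposited identifiers carry no gene names, so no member is assigned here to any of these functions, and tissue marker genes could not be checked. An identifier such as TR28832|c0_g1_i5 gives an assembly component (TR28832), a locus within it (c0_g1) and a transcript of that locus (i5).

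The members were 0.150% of the transcripts and held 19.4% of the leaf counts (exact 95% interval 19.36 to 19.42). In flower they held 3.04% of the counts (3.03 to 3.05). These intervals cover counting error only. Of the 215 transcripts of at least 500 CPM in leaf, the members were 57.2%, against 9.20% of all 44042 transcripts with at least 1 CPM in a library that lay in the same ratio window. The leaf minimum itself favours transcripts that are higher in leaf, so these shares describe the choice and do not stand as a result about the members. Divided by length, as TPM (the authors' counts over effective length, scaled to a common total), the members held 16.5% of the leaf library and 2.39% of the flower library.

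**Figure D1:**
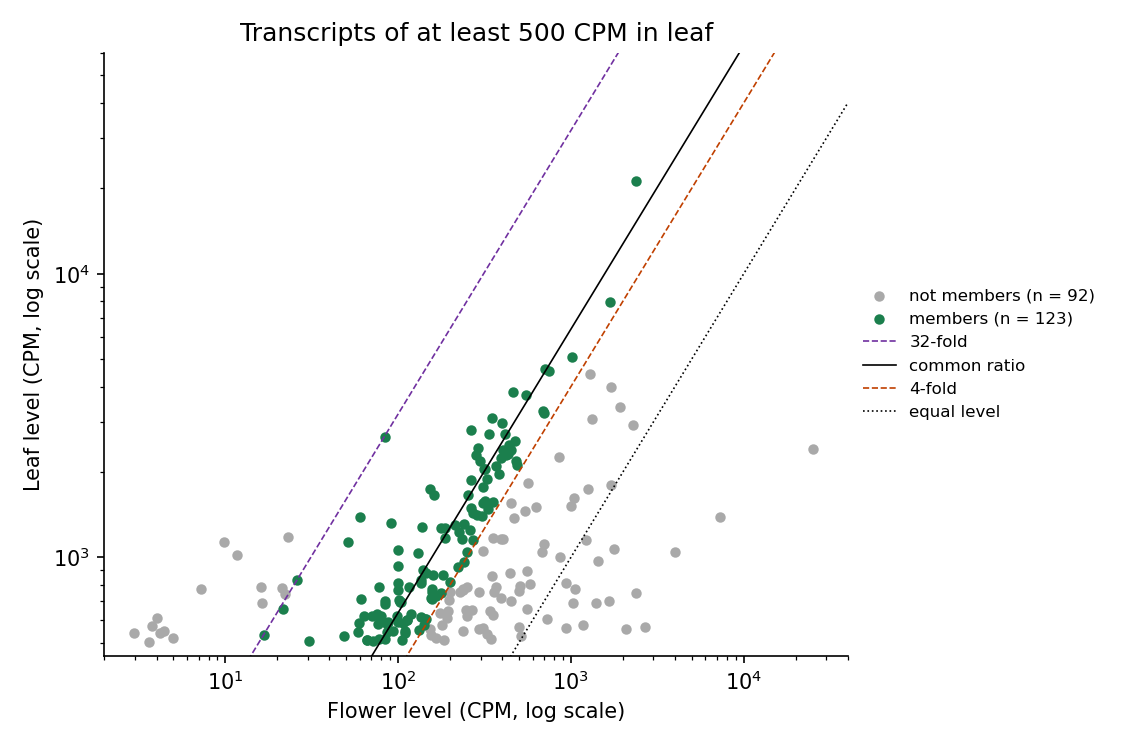
Flower level (x axis, CPM, log scale) against leaf level (y axis, CPM, log scale) of the 215 transcripts of at least 500 CPM in leaf, with the 123 members in green and the other 92 in grey; lines mark equal level, the 4-fold and 32-fold limits and the members' common ratio of 6.38. Most members lie in a band just above the 4-fold line, and only 7 lie at 16-fold or more.

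The change in composition between the libraries was large, and the members made up much of its leaf side. Summed over all transcripts whose share was greater in leaf, 43.6% of the leaf counts were in excess of the flower share. The members supplied 37.5% of that excess, gaining 16.4 percentage points between flower and leaf. They were chosen for a high leaf level and a leaf-higher ratio, so a large part in the excess follows from the choice. The other transcripts of each library are measured against a total that contains the members, and the space left to them in leaf was 0.831 of that in flower. Among 11108 other transcripts of at least 10 CPM in both libraries, the median ratio of leaf over flower was 0.893. Taken against totals without the members it was 1.07. This removal was one-sided: taking out only transcripts chosen as higher in leaf can only raise the median, and abundant transcripts higher in flower stayed in the totals. The side of equality on which the typical transcript fell thus depended on which transcripts were counted in the total.

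The leaf counts of the members were led by a single transcript. TR5633|c0_g1_i1, of 923 bases, had 153518 expected counts in leaf and 17821 in flower. This is 21222 CPM in leaf, the highest level of any transcript there, and 2395 CPM in flower, where it ranked 12. Its leaf level was 8.86 times its flower level (8.73 to 9.00), and it alone took 2.12% of all leaf counts and 0.239% of all flower counts.

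The next in leaf, TR17824|c0_g1_i1, of 1031 bases, stood at 7941 CPM in leaf and 1682 CPM in flower, a ratio of 4.72 (4.63 to 4.81). The third, TR25010|c0_g2_i1, is a long transcript of 4992 bases and had 5092 CPM in leaf and 1013 CPM in flower, a ratio of 5.02 (4.90 to 5.15). These first 3 members were the only ones above 1000 CPM in flower. TR25160|c0_g1_i1 (1770 bases) stood at 4613 CPM in leaf and 707 CPM in flower. TR31746|c0_g1_i1 (3740 bases), whose ratio of 6.08 was the median of the members, had 4556 CPM in leaf and 749 CPM in flower. The remaining members among the 10 most abundant in leaf were TR10205|c0_g1_i1, TR16054|c0_g1_i1, TR30048|c4_g1_i1, TR30048|c3_g1_i1 and TR25932|c0_g1_i1, with 3105 to 3814 CPM in leaf and 350 to 700 CPM in flower.

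The 5 most abundant transcripts of the leaf library were all members, as were 7 of its first 10, 39 of its first 50 and 67 of its first 100. In flower the same transcripts were spread far down the order. None was among the first 10 there (0), 4 were among the first 100, 47 among the first 500 and 98 among the first 2000, with a median rank of 892. The members had 124 to 17821 expected counts in flower, with a median of 1165. A leaf minimum of 500 CPM with a ratio under 32 itself forces a well-measured flower level on every member. Flower levels ran from 16.7 to 2395 CPM with a median of 157, and 89 members had at least 100 CPM. The lowest, TR34545|c0_g1_i1, lay above 85.8% of the transcripts with a count in flower, a position that the rule largely sets.

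**Figure D2:**
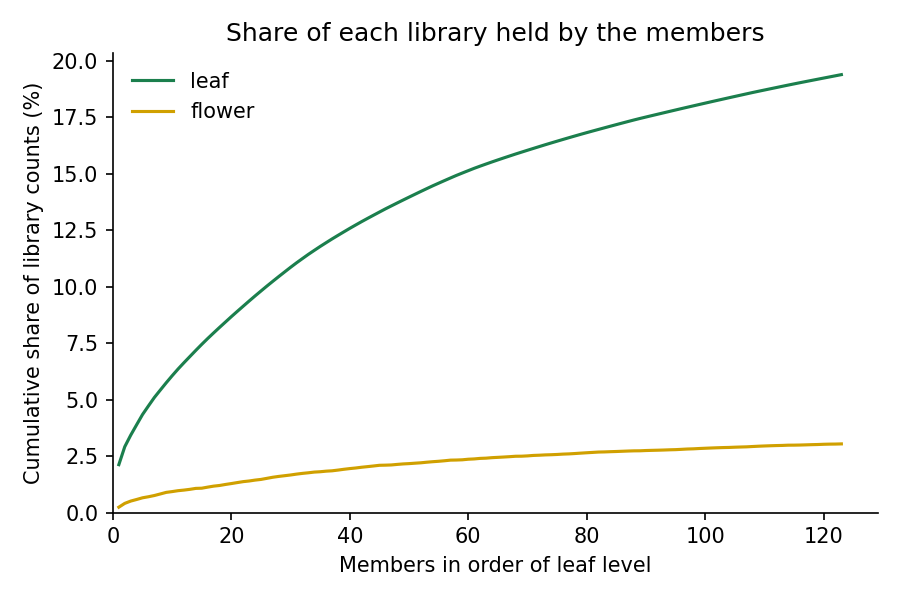
Cumulative share of library counts (y axis, %) held by the members, taken in order of leaf level (x axis), in leaf (green) and flower (yellow). The curves end at 19.4% in leaf and 3.04% in flower, and the first member alone contributes 2.12% and 0.239%.

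Within the members the counts were similarly concentrated in both tissues, a likeness that the ratio window favours. The 10 most abundant in leaf held 31.2% of the members' leaf counts and 30.6% of their flower counts. In each library 25 members were enough to hold 50% of the members' counts. The leading transcript TR5633|c0_g1_i1 took 10.9% of the members' counts in leaf and 7.87% in flower. Over the 123 members, leaf and flower CPM had a Spearman rho of 0.84, a description over transcripts of the same pair of libraries that the ratio window forces to be high. Over all 215 transcripts of at least 500 CPM in leaf, which carry no such limit on the ratio, rho was 0.53.

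The ratios were crowded toward the lower limit of the window. Of the members, 92 (74.8%) were 4 to under 8 times higher in leaf, 24 (19.5%) were 8 to under 16 times higher and 7 (5.69%) were 16 to under 32 times higher. The median was 6.08, with quartiles of 4.98 and 8.04 and extremes of 4.01 and 31.7. In terms of flower, the typical member kept 16.4% of its leaf CPM, and the range was 3.12% to 24.9%. The 92 members in the lowest class made up 13.3% of leaf and 2.42% of flower counts. The 7 in the highest class held 0.771% and 0.0290%.

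A single ratio could not be fitted to the members within counting error. The ratio of their summed counts, called the common ratio, was 6.38 (6.35 to 6.41). The exact 95% interval of a member's own ratio held this value in 22 of 123 members (17.9%). It lay wholly above it in 46 and wholly below it in 55. No other single value did better, since the most intervals held by any value on a grid of 0.01 was also 22, at 6.34. The chi-square of the members' counts around the common ratio was 154 times its degrees of freedom, where counting error alone would give about 1. These figures compare 2 libraries and carry no p-value, since spread between plants was not measured.

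The departures were moderate in size for most members, but the ratio window limits both the departures and the spread of the log2 ratios. Its lower limit alone places every member below the common ratio within 2-fold of that ratio. Within 1.5-fold of the common ratio lay 96 members and within 2-fold 115. The log2 ratios had an SD of 0.63 across members, while the counting error of a single log2 ratio had a median of 0.05 and was at most 0.13. Over all 215 transcripts of at least 500 CPM in leaf, without the window, the SD of the log2 ratio was 1.75. The common ratio also leaned on the leading transcript. Without TR5633|c0_g1_i1 it was 6.16 (6.14 to 6.19), and 15 of the remaining 122 intervals held it. The interval of a typical member spanned 6.37% of its ratio to either side.

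**Figure D3:**
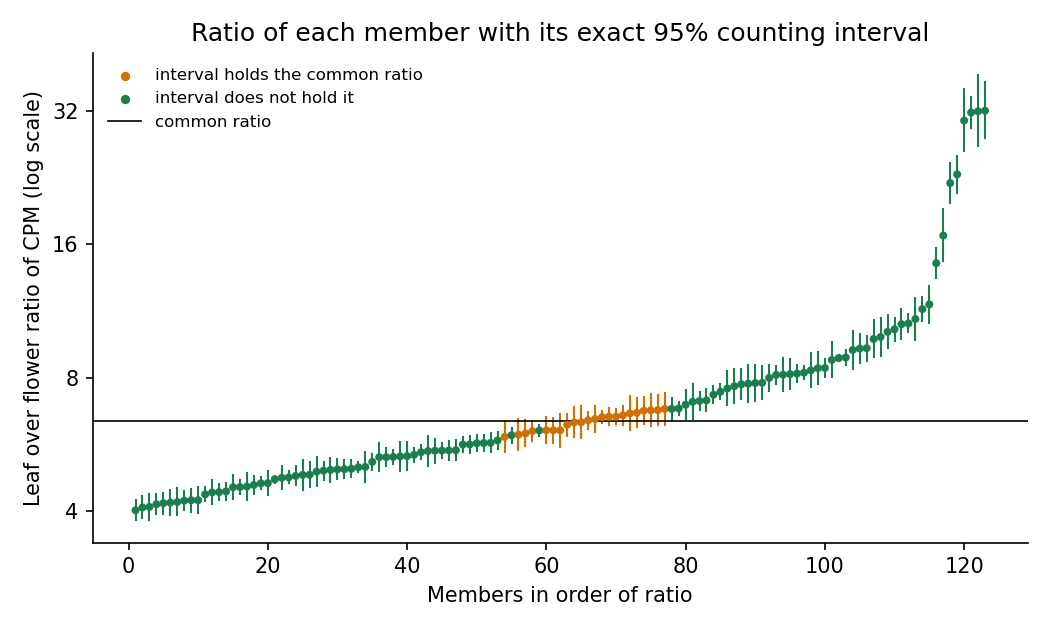
Leaf over flower ratio of CPM (y axis, log scale, no counts added) of the 123 members in ascending order (x axis), with vertical bars for exact 95% counting intervals and a horizontal line at the common ratio of 6.38. The 22 members whose interval holds the common ratio are in orange, and the ratios climb smoothly from about the 4-fold limit before rising steeply over the last few members.

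The members with the greatest ratios were few. TR21012|c0_g1_i1, of 433 bases, had 6010 expected counts in leaf and 193 in flower, a ratio of 31.7. TR23318|c0_g1_i1, of 1075 bases, was the most abundant of them in leaf, with 2661 CPM there and 83.8 CPM in flower, a ratio of 31.6. Its flower rank was 2035 although it ranked 20 in leaf. TR34545|c0_g1_i1 (1587 bases) had 532 CPM in leaf and 16.7 CPM in flower. These 3 lay so near the upper limit that they passed it with TMM factors, at 32.6 to 32.8, and by TPM, at 32.6 to 33.5, while TR21012|c0_g1_i1 also passed it with no added count, at 32.04.

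TR25428|c0_g3_i1 (797 bases) had 659 CPM in leaf and 21.6 CPM in flower, a ratio of 30.1. Its locus partner TR25428|c0_g3_i2 had more flower counts, 248 against 161. The ratio of 30.1 thus depends on how reads were divided between them. TR48127|c0_g1_i1 (2189 bases) had 1392 CPM in leaf and 60.5 CPM in flower, a ratio of 22.9. At the common ratio, TR21012|c0_g1_i1 would have had 970 counts in flower, so the observed 193 were 0.199 of that number. Over TR34545|c0_g1_i1, TR23318|c0_g1_i1 and TR25428|c0_g3_i1 the corresponding fractions were 0.200, 0.201 and 0.209.

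At the other end the members differed from the common ratio by less, because the lower limit of the window lies nearer to it than the upper limit. TR19579|c0_g1_i1 (2653 bases) had 964 CPM in leaf and 240 CPM in flower, a ratio of 4.01, and its 1786 flower counts were 1.59 times the number the common ratio gives. TR25655|c0_g2_i1 (2756 bases) had 819 CPM in leaf and 201 CPM in flower, a ratio of 4.07. TR17760|c0_g1_i1, TR679|c0_g1_i1 and TR19889|c0_g1_i2 followed with ratios of 4.08, 4.14 and 4.16. By the DESeq2 size factors, which were 1 in both libraries, TR19579|c0_g1_i1, TR25655|c0_g2_i1 and TR17760|c0_g1_i1 were outside the window on raw counts, at 3.90, 3.96 and 3.97. The exact intervals of 9 members reached below the limit of 4, and those of 4 members reached the limit of 32.

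Values just outside the limits were close to those just inside. Below 4-fold the nearest transcripts of at least 500 CPM in leaf were TR25839|c0_g2_i1 at 3.74 and TR28991|c3_g2_i1 at 3.65. Above 32-fold they were TR48058|c0_g1_i1 at 33.0 and TR47877|c0_g1_i1 at 36.4. At the leaf minimum, TR17029|c0_g1_i1 with 507 CPM and TR30126|c1_g1_i1 with 509 CPM were inside, and TR25352|c0_g1_i1 with 489 CPM and TR12631|c0_g1_i1 with 487 CPM were outside.

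Inside the limits of the rule, the ratio did not follow the leaf level. The rule cut on both values, so nothing is said here about transcripts outside the limits. Without the ratio window, the median leaf over flower ratio was 1.01 at 10 to under 50 CPM in leaf and 4.97 at 500 CPM and over. For the 123 members the Spearman rho of ratio and leaf CPM was -0.04, again a description over transcripts measured in the same 2 libraries. The 62 members of 500 to under 1000 CPM in leaf had a median ratio of 6.39, the 31 of 1000 to under 2000 CPM one of 5.70, and the 30 of at least 2000 CPM one of 6.24. Ratios of at least 8 were found in 25.8%, 22.6% and 26.7% of these classes. Most of the members' weight lay in the last class, whose 30 transcripts made up 10.9% of leaf and 1.66% of flower counts.

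Transcript length, which the rule did not use, ran from 361 to 7485 bases among the members. The median of 1587 bases compares with 449 over all transcripts, but also with 1715 over the 1511 transcripts of at least 100 CPM in leaf, so long length is shared with other abundant transcripts. For the 92 transcripts that also reached 500 CPM in leaf without being members the median was 1875 bases. Among the members, the shorter ones tended to have greater ratios, with a Spearman rho of -0.21 between ratio and length. The 21 members of at most 1000 bases had a median ratio of 7.98 and 10 of them were at least 8-fold higher in leaf. The 69 members over 1000 and up to 2000 bases had a median of 6.26 with 15 such members, and the 33 longer ones a median of 5.65 with 6.

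**Figure D4:**
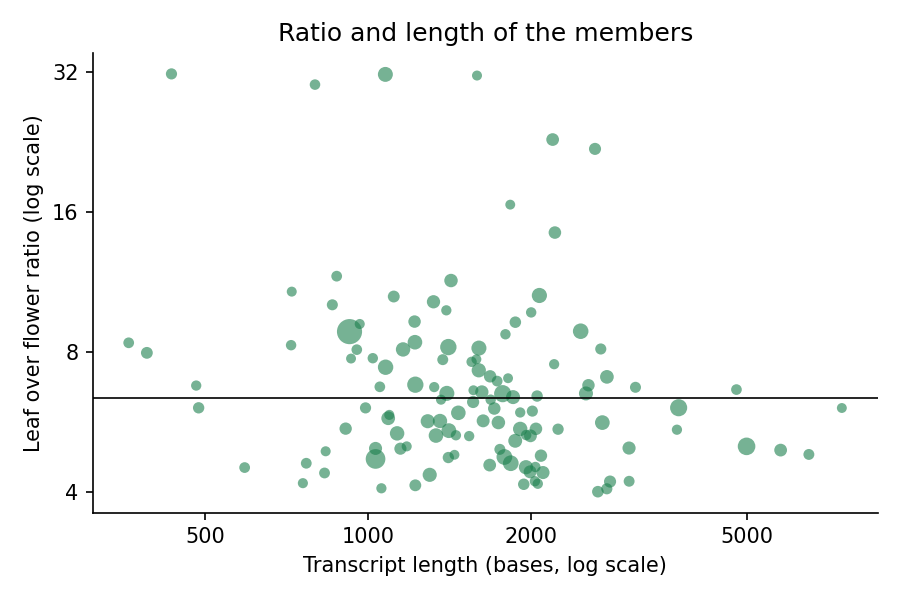
Transcript length (x axis, bases, log scale) against leaf over flower ratio (y axis, log scale) of the 123 members, with point area in proportion to the square root of leaf CPM and a line at the common ratio of 6.38. The 21 members of at most 1000 bases have a median ratio of 7.98 and the 33 over 2000 bases one of 5.65, with wide overlap.

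A difference in the libraries moves with length and was examined beside this pattern. The mean fragment length implied by the deposited effective lengths was 171 bases in flower and 178 in leaf. Dividing by effective length therefore raises the leaf over flower ratio of a short transcript more than that of a long one. For TR17373|c0_g1_i1, the shortest member at 361 bases, the ratio of TPM was 1.06 times the ratio of CPM, and for TR31341|c0_g1_i2, the longest at 7485 bases, it was 1.02 times. In TPM the shortest class had the greatest median ratio, 8.37, followed by 6.42 and 5.78. As the division raises short transcripts more, TPM could not have removed the pattern, and these values are no check of it. Whether fragment length had a part in the ratios by count was not tested.

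Per length, the order of the members' levels was altered. TR5633|c0_g1_i1 remained first in leaf with 27460 TPM, against 3009 TPM in flower. TR15631|c0_g1_i1, of only 390 bases, ranked 89 in leaf by counts but had 4687 TPM there and 557 TPM in flower. TR17373|c0_g1_i1 had 3681 TPM in leaf and 414 TPM in flower. The longest, TR31341|c0_g1_i2, had 67.9 TPM in leaf and 10.9 TPM in flower and was the only member under 100 TPM in leaf. By TPM, 57 members were among the first 100 of the leaf library and 2 among the first 100 of the flower library.

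Several members are variants of the same assembled sequence. The 123 members fell into 113 loci of 110 components, and 96 were the sole transcript of their locus. In 9 loci there were 2 or 3 members, 19 transcripts in all. Transcripts of a locus may share sequence, and how reads were divided among them is not given in the sources used here, so their separate values are uncertain and they are not independent of each other.

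The component with the most members was TR28832, with 6 transcripts of 1372 to 1729 bases in 3 loci. Their ratios ran from 5.70 for TR28832|c0_g1_i5 to 9.85 for TR28832|c1_g2_i2, and together they took 0.702% of leaf and 0.100% of flower counts. The intervals of those 2 transcripts, 5.43 to 5.99 and 8.96 to 10.9, did not overlap. TR30048 had 3 members with 0.890% of leaf and 0.179% of flower counts, at ratios of 4.62 for TR30048|c3_g1_i1, 4.77 for TR30048|c4_g1_i1 and 5.93 for TR30048|c4_g1_i2.

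Members of the same locus were close in ratio in some loci and apart in others. The closest were the following pairs. TR19663|c0_g1_i1 and TR19663|c0_g1_i2 were 8.41 and 8.11 times higher in leaf, and TR26702|c0_g1_i1 and TR26702|c0_g1_i2 5.29 and 5.48 times. Over the 9 loci the greater ratio exceeded the lesser by a median of 1.19-fold and at most 1.35-fold, in TR33922|c5_g1. In 5 of the 9 loci the members' counting intervals did not all overlap. Pairs of members from the same component, 24 in number, differed by a median of 1.20-fold, and the 7479 pairs from different components by 1.37-fold. Of the 24 pairs, 15 came from TR28832 alone, and the other 9 differed by a median of 1.13-fold. All pairs are confined to the ratio window that chose the members, and the part of shared reads was not tested.

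Another 8 transcripts belonged to a locus with a member but were not members themselves. Of these, 7 were under the leaf minimum, at 103 to 287 CPM in leaf, and 5 of the 8 lay in the same ratio window. TR25428|c0_g3_i2, from the locus of a member 30.1 times higher in leaf, was 3.09 times higher there. TR19889|c0_g1_i4 was 2.43 times higher in leaf, beside 4.16 for the member TR19889|c0_g1_i2.

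A single locus held transcripts that went opposite ways. The member TR27870|c1_g1_i1, of 1907 bases, had 2297 CPM in leaf and 419 CPM in flower, a ratio of 5.48 (5.27 to 5.69). Its partner TR27870|c1_g1_i2, of 1872 bases, had 558 CPM in leaf and 2082 CPM in flower, a leaf over flower ratio of 0.268. By these values the locus gave an abundant transcript in each tissue, with a different one leading in leaf and in flower. How reads were divided between the 2 transcripts is not given, so both ratios are uncertain. The leading transcript also differed between the tissues in TR25428|c0_g3, though both of its transcripts were higher in leaf. There TR25428|c0_g3_i1 had 4764 counts in leaf and 161 in flower, and TR25428|c0_g3_i2 had 748 and 248. Both loci were picked out after their values were seen.

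The members were set beside the other 92 transcripts of at least 500 CPM in leaf. Those ranged from 3 transcripts at least 4 times higher in flower to 15 transcripts at least 32 times higher in leaf, and their log2 ratios had an SD of 2.41. Between the 4-fold limit and equality lay 60 of them, 35 at 2 to under 4 times and 25 at 1 to under 2 times higher in leaf. All 92 together took 9.39% of leaf and 9.00% of flower counts, but without the 3 that were at least 4 times higher in flower the remaining 89 took 8.95% and 5.48%. The 15 transcripts at least 32 times higher in leaf held 1.10% of the leaf counts. The 35 at 2 to under 4 times held 4.08% and the 25 at 1 to under 2 times 2.69%, beside 19.4% for the members. These shares depend on where the ratio window was drawn.

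Less abundant leaf transcripts in the same ratio window were centred at slightly greater ratios. The shared window itself favours centres near each other, so their nearness is no result about the members. The 269 transcripts of 100 to under 500 CPM in leaf had a common ratio of 6.60 (6.54 to 6.65) and a median of 6.50, against 6.38 and 6.08 for the members. Their upper part was fuller, with 13.8% at 16 to under 32 times, where the members had 5.69%. The interval of a transcript's own ratio held their common ratio in 58 of 269 (21.6%), although these intervals are wider because the counts are lower. Together they took 5.54% of leaf and 0.840% of flower counts.

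The mirrored rule, at least 500 CPM in flower and 4 to under 32 times higher there, was met by 39 transcripts. These were 23.9% of the 163 transcripts of at least 500 CPM in flower, while 14.0% of all 44042 transcripts lay in the flower-higher window. Together they took 7.46% of flower and 0.929% of leaf counts. Their flower over leaf ratios were wider than those of the members in log2 SD, 0.85 against 0.63, with a median of 9.12. Within the window 23.1% were 16 to under 32 times higher. A further 45 of the 163 transcripts of at least 500 CPM in flower (27.6%) were at least 32 times higher there. On the leaf side 15 of 215 (6.98%) were.

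The share of transcripts in the ratio window was greatest at the top of the leaf library. It was 9.46% among transcripts of 10 to under 50 CPM in leaf, 12.4% at 50 to under 100 CPM, 20.8% at 100 to under 500 CPM and 57.2% at 500 CPM and over. Binned by flower CPM, the share of transcripts higher in flower by the same folds was 8.23%, 9.06%, 15.5% and 23.9% over these classes. Below 10 CPM the flower share was the greater, with 11.7% (leaf) and 22.8% (flower) at 1 to under 5 CPM and 9.94% and 14.2% at 5 to under 10 CPM. The median leaf over flower ratio was 1.01 at 10 to under 50 CPM in leaf and 4.97 at 500 CPM and over. Both binnings choose transcripts for a high level in a tissue, and the part of that choice in either trend was not tested.

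**Figure D5:**
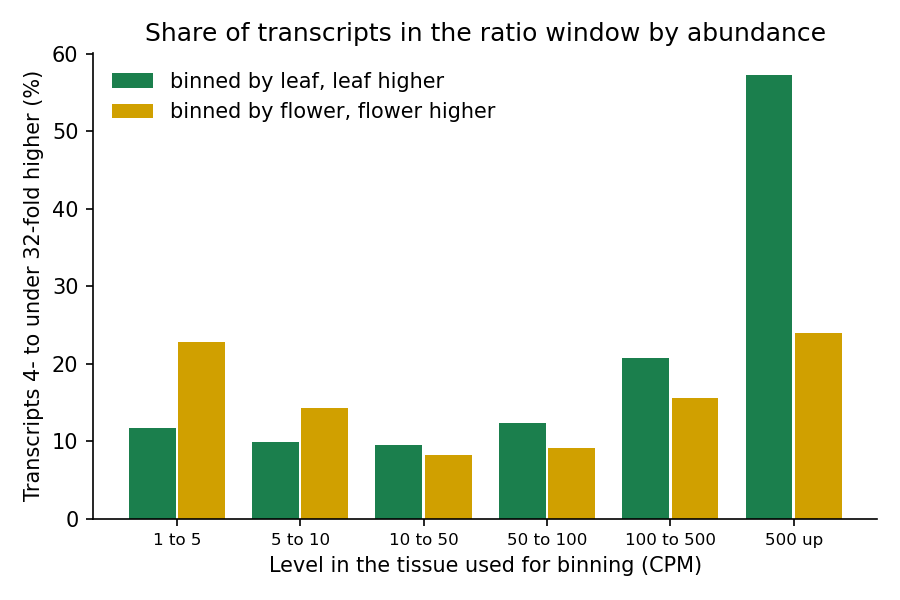
Share of transcripts (y axis, %) that were 4 to under 32 times higher in the tissue used for binning, by CPM in that tissue (x axis), for leaf (green) and flower (yellow). At 500 CPM and over the bars stand at 57.2% for leaf and 23.9% for flower, while at 10 to 50 CPM they are 9.46% and 8.23%.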

How the data were processed

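Flower and leaf RNA of F. suspensa were each sequenced as 1 library, prepared from oligo(dT)-selected RNA with strand kept, per the labels' protocols. The submitters' processing notes name Trimmomatic for trimming and RSEM for quantification; the sources used here give no version, aligner or reference sequence set. Per the file headers, the authors deposited an expected count, a TPM value and an FPKM value per transcript, with effective length and an isoform percent. All deposited expected counts were whole numbers (0 with a fraction in either library). The authors' series-wide FPKM table matched the per-library values for all 123 members within 0.005 FPKM. The shorter gene identifiers of that table are used as names.

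Levels, shares and ratios were computed in Python 3.11.15 (pandas 2.3.3, numpy 2.4.6, scipy 1.17.1), and figures with matplotlib 3.10.9. Library totals were the scale, and the background was counted among transcripts of at least 1 CPM in a library. Shares carry exact Clopper-Pearson 95% intervals. Ratio intervals are exact, conditional on the total count of a transcript, with no counts added, and PCR copies were not separated. The ratio and dispersion steps were tested on simulated data. Alternatives were edgeR 4.0.16 TMM factors, DESeq2 1.42.0 size factors (R 4.3.3), 0.5 or no added counts, TPM, the series-wide FPKM, minima of 250 and 1000 CPM, assembly loci and removal of the leading member.

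The transcripts named are the 10 members highest in leaf, the 5 highest and 5 lowest ratios, the 3 longest and 3 shortest, members that share a locus, and the 2 transcripts on either side of each limit; others are said to be chosen after their values were seen. Members of the same component and partners of members were listed for their shared identifier. The members and these rules were chosen with earlier results of these data known.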

Additional observations from a re-analysis of the deposited data

How the results depend on the processing

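No paired analysis was possible because each tissue has a single library, and for the same reason no replicate was left out. The number of members was 110 to 123 under every alternative that kept the leaf minimum at 500. It was 190 with a minimum of 250 CPM and 61 with 1000 CPM. With TPM 110 transcripts were chosen, of which 83 were members. TMM factors left 120 of the 123, without TR21012|c0_g1_i1, TR23318|c0_g1_i1 and TR34545|c0_g1_i1. The DESeq2 size factors were 1 in both libraries, from a tie at equal counts, so this setting compares raw counts with no scaling for depth; it left 120, without TR19579|c0_g1_i1, TR25655|c0_g2_i1 and TR17760|c0_g1_i1. The share of leaf counts held by the transcripts that each setting chose was 19.0% with TMM factors, 19.2% with DESeq2 size factors, 19.31% with no added count, 21.7% and 15.2% with minima of 250 and 1000 CPM, 19.44% over assembly loci, 17.3% without the leading member and 19.26% with the series-wide FPKM. The 110 transcripts chosen by TPM held 17.9% of leaf TPM and 2.63% of flower TPM, which are shares of TPM and not of counts. The share of flower counts in the same settings, where it left its counting interval, was 3.028% with TMM factors, 2.98% with DESeq2 size factors, 3.42% and 2.38% with the 2 minima and 2.80% without the leading member. The median ratio was 6.29 with TMM factors and 6.39 by TPM. The common ratio was 6.49 with TMM factors, 6.24 with DESeq2 size factors, 6.34 and 6.42 with the 2 minima, 6.16 without the leading member, 6.82 by TPM and 6.66 with the series-wide FPKM. The share of intervals that held the common ratio was 9.84% with a minimum of 1000 CPM, where counts are higher and intervals narrower; TPM and FPKM gave no such share for want of counts. The dispersion index stayed between 118 and 227 in the alternatives based on counts. The ratios of the named transcripts are too far from equality for these settings to turn any of them. Counting intervals are narrow at this depth and hold no spread between plants, which was not measured.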
